A study of Mus musculus with 8 samples.

Results

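Tuft cells are rare chemosensory cells of the intestinal epithelium, and the 10 genes examined here (Pou2f3, Dclk1, Avil, Tas1r3, Gnat3, Plcb2, Trpm5, Il25, Il17rb and Chat) are commonly used to recognise them or encode parts of their taste-like signalling. They were listed by symbol and are 10 of the 23366 gene symbols in the deposited tables. All 10 passed the filter on low counts and are among the 20427 genes tested. RNA came from sorted cells of 6-week-old male littermate mice. Sox4cKO animals were Sox4fl/fl:vilCre+/-, so that Cre from the villin promoter, which is active in the intestinal epithelium, deletes the floxed Sox4 alleles from embryonic life on. Control animals were Sox4fl/fl and carried the same floxed alleles without Cre. CD326-positive epithelial cells of each animal were sorted into a crypt-enriched CD44-positive gate (CD44plus) and a villus-enriched CD44-negative gate (CD44minus), with 50000 cells per library. The 4 groups are therefore Sox4cKO CD44plus, control CD44plus, Sox4cKO CD44minus and control CD44minus, each with 2 libraries from 2 animals. Values of a group are given for replicate 1 and then replicate 2 throughout.

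A tuft cell reads the gut lumen much as a taste cell reads food. Receptors on its surface activate a G protein, whose subunits switch on phospholipase C beta 2 (PLCB2). The inositol trisphosphate made by this enzyme releases calcium inside the cell, and calcium opens the TRPM5 cation channel. The transcription factor POU2F3 is needed for tuft cells to form. In the mouse small intestine, activated tuft cells release interleukin 25 (IL-25), which acts on type 2 innate lymphoid cells (ILC2), and interleukin 13 from these lymphoid cells drives the epithelium to make more tuft and goblet cells. SOX4 is a transcription factor of the crypt, and the comparison of genotypes asks whether transcripts of tuft cells depend on it in the epithelium. In bulk libraries, fewer tuft cells and less RNA per tuft cell cannot be told apart.

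The libraries differed widely in depth, from 886194 to 13238050 counts on genes, and the CD44minus libraries were the shallower ones within each animal. Levels are CPM, the reads of a gene scaled to 1 common library total with TMM factors, unless another unit is named. Sox4 itself had 17.8 and 25.7 CPM in Sox4cKO CD44plus, against 128 and 120 CPM in control CD44plus, a log2 fold change of -2.51 (SE 0.61) that had an unadjusted p of 0.000642 by edgeR's quasi-likelihood test but did not pass adjustment over all genes. In a fit of the 4 CD44plus libraries alone, its adjusted p by the same test was 0.0186. The sort marker Cd44 had 203 and 327 CPM in Sox4cKO CD44plus and 246 and 270 CPM in control CD44plus, against 5.72 to 27.2 CPM in the 4 CD44minus libraries. Of the libraries, Sox4cKO CD44minus replicate 2 stood apart from the other 3 of its gate, with a summed level of 11 enterocyte markers of 59236 CPM against 11146 to 27575 CPM. Sox4cKO CD44plus replicate 2 had a summed level of 7 mast cell markers of 17537 CPM, against 1890 to 3644 CPM in the other CD44plus libraries. HTSeq counted to no gene 64.6 to 79.3% of the uniquely placed reads in CD44plus, but 92.0 to 96.6% in 3 CD44minus libraries and 76.8% in Sox4cKO CD44minus replicate 2; the part of this difference in the gate results was not tested. For the tuft genes examined, the main tests that rest on the libraries that stand apart are given with and without them. Some other values, such as averages per kilobase, likeness across libraries and fold changes of further tuft genes, are given only with them.

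Promoter windows, running from 250 bases before to 50 bases after each annotated start, were taken from RefSeq on GRCm38.p6 for 8 of the 10 genes. The 2 others are Pou2f3 and Il25. Both strands of the 9 windows (Dclk1 has 2) were searched for the octamer ATGCAAAT, known from POU factors, and for AACAAAG and AACAATG, known from SOX factors. The SOX motifs share their first 5 letters, and a window with either of them was counted once. The octamer matched in none of the 9 windows and in 1.74% of 32851 windows of all genes. A SOX motif matched in 1 of the 9 windows, that of Tas1r3, and in 9.36% of all windows. It is shown first, with the match in capitals (CATTGTT, the reverse complement of AACAATG, starting at position -11 from the start). The windows of Avil and Plcb2 follow because both genes were highest in Sox4cKO CD44plus replicate 2; neither window held a searched motif, so they have no capitals. A match is a stretch of letters and is not evidence of binding, and a window without a match says only that these letters are not in it.
Tas1r3, chr4:155863304-155863603, minus strand: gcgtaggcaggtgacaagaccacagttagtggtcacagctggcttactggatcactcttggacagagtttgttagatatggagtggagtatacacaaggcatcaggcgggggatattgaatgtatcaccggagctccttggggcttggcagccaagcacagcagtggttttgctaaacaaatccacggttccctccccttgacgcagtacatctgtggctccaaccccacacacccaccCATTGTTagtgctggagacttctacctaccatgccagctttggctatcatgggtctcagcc
Avil, chr10:127000459-127000758, plus strand: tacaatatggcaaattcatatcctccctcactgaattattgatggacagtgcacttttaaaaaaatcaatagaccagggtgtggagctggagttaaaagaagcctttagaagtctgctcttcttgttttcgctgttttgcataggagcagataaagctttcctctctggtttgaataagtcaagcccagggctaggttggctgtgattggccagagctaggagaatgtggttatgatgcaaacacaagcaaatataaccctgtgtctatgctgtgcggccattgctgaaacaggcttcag
Plcb2, chr2:118728389-118728688, minus strand: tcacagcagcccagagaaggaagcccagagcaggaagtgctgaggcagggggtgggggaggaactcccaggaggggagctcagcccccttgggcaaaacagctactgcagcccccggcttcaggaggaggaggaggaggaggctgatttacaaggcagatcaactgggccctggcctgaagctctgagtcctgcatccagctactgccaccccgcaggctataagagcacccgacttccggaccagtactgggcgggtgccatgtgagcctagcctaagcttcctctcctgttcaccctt

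No tuft gene passed the test for a difference between Sox4cKO and control, in either gate. Within CD44plus, Avil and Plcb2 lay higher and Dclk1 lower in the Sox4cKO libraries than in any control library, with log2 fold changes of 1.07, 1.15 and -0.84 whose standard errors were 0.61 to 0.67; of all genes tested, 14.2% were higher and 16.4% lower in this sense. Within Sox4cKO, Plcb2 and Avil rose in CD44plus relative to CD44minus, by 8.24-fold and 6.38-fold, where 1.66% of all genes were called higher. Neither call held once Sox4cKO CD44plus replicate 2, the library with the highest mast cell markers, was left out. That fit keeps a lone Sox4cKO CD44plus library, and few genes of any kind were called in it. The log2 fold change of Avil became 1.83, against 2.67 with replicate 2 included, and that of Plcb2 became 2.46. Library totals and the fit of the 4 Sox4cKO libraries also ended both calls, though the latter called 0 of 16814 genes. RLE size factors kept Plcb2 alone. Both calls held with the animal as a block, with no filter on low counts and with DESeq2. The lineage factor Pou2f3, the channel Trpm5 and the cytokine receptor Il17rb had log2 fold changes between genotypes of -0.39, 0.20 and 0.00014 in CD44plus, with standard errors of 0.54 to 0.86, so changes of about that size were not detectable.

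**Figure D1:**
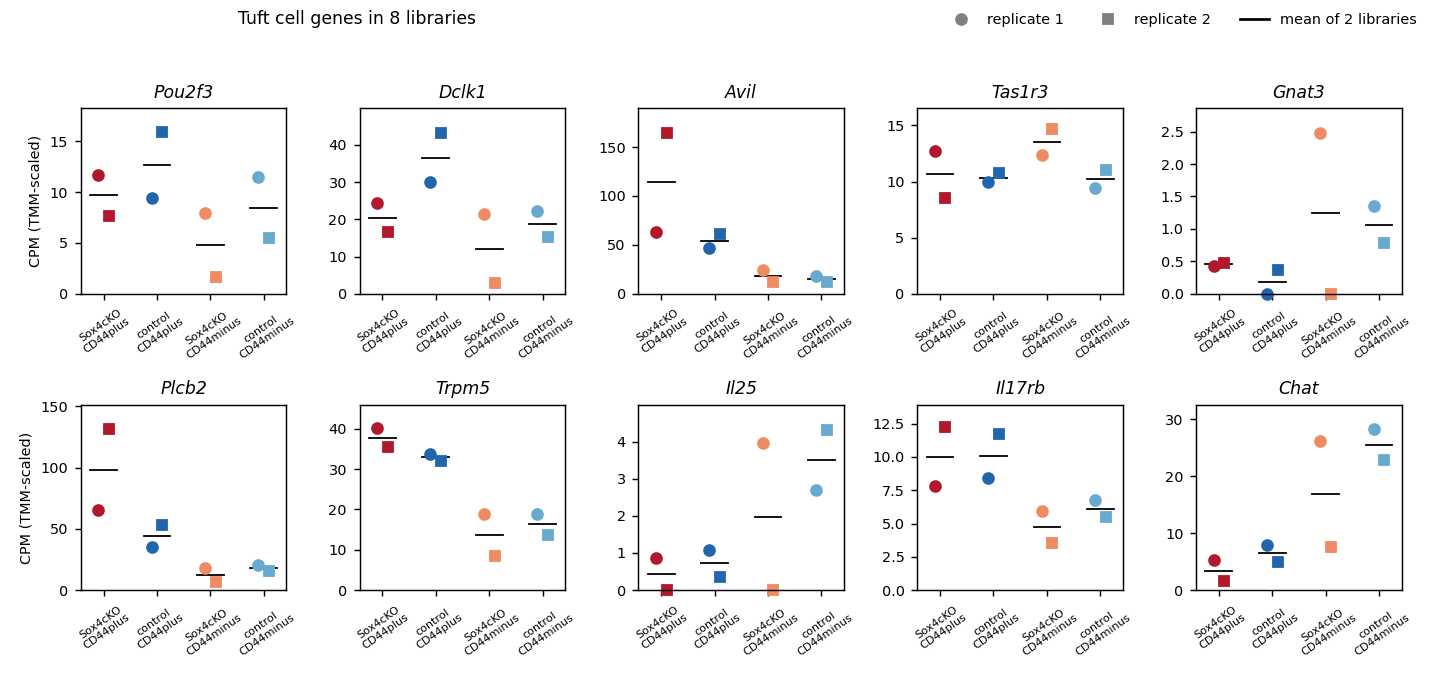
Level of each of the 10 tuft cell genes in every library, in CPM with TMM scaling (linear axis from 0, its range set per gene), with 1 point per library and the 4 groups along the horizontal axis. Avil (165 CPM) and Plcb2 (131 CPM) are highest in Sox4cKO CD44plus replicate 2, while Chat is higher in CD44minus than in CD44plus within each genotype.

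Pou2f3 (GRCm38 chr9:43123939-43210369, minus strand) encodes the transcription factor on which the tuft lineage depends. It had 11.7 and 7.67 CPM in Sox4cKO CD44plus, against 9.47 and 15.9 CPM in control CD44plus. The CD44minus libraries had 7.92 and 1.63 CPM in Sox4cKO and 11.5 and 5.5 CPM in control, where the lowest value rested on 6 reads (exact Poisson 95% interval 2.2 to 13.1). The genotypes overlapped in both gates, and the log2 fold change in CD44plus was -0.39 (SE 0.86). The CD44plus libraries each held 81 to 106 Pou2f3 reads, and the biological coefficient of variation shared over all genes was 0.616.

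Dclk1 (chr3:55242364-55539068, plus strand) encodes a microtubule-associated kinase that is the most widely used tuft cell marker in the mouse gut. It had 24.4 and 16.5 CPM in Sox4cKO CD44plus, against 29.9 and 43.3 CPM in control CD44plus. The Sox4cKO libraries lay below the control libraries without overlap, and Dclk1 was the only one of the 10 genes to do so in this gate. The fit of the 4 CD44plus libraries alone tested 8 of the 10 genes and called none of them, beside 0.0997% of all genes. There, the Dclk1 log2 fold change of -0.84 had a standard error of 0.30, an unadjusted p of 0.0228 and an adjusted p of 0.898 by edgeR's quasi-likelihood test. In the other direction, Plcb2 had an unadjusted p of 0.00869 and Avil of 0.0246 in that fit by edgeR, with adjusted p of 0.73 and 0.902. The CD44minus values of Dclk1 were 21.3 and 3.0 CPM in Sox4cKO and 22.2 and 15.3 CPM in control.

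Avil (chr10:127000709-127020994, plus strand) encodes advillin, an actin-binding protein of the villin family found in tuft cells and in sensory neurons. It had 63.1 and 165 CPM in Sox4cKO CD44plus, against 47.3 and 61.4 CPM in control CD44plus. The Sox4cKO libraries did not overlap the control libraries, but replicate 1 exceeded the higher control library only slightly, whereas replicate 2 was 2.61 times replicate 1. In CD44minus, Avil had 23.8 and 12.3 CPM in Sox4cKO and 18.2 and 11.8 CPM in control, with overlap. Of its exon bases, 165 also lie in exons of Tsfm on the opposite strand, and whether the reads were counted by strand is not given in the sources used here, so reads there could belong to either gene. Tsfm had 25.6 and 21.4 CPM in Sox4cKO CD44plus, so it did not share the high Avil value of replicate 2.

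The members of the taste cascade were detected unevenly. Tas1r3 (chr4:155859268-155863362, minus strand) encodes the receptor subunit shared by sweet and umami taste receptors. It had 12.7 and 8.53 CPM in Sox4cKO CD44plus, against 9.92 and 10.8 CPM in control CD44plus. In CD44minus it had 12.4 and 14.7 CPM in Sox4cKO and 9.43 and 11 CPM in control. These values rest on 25 and 54 reads in Sox4cKO and 14 and 28 reads in control. The exact Poisson interval of the 14 reads, taken as for Pou2f3, was 7.65 to 23.5. With that uncertainty, Tas1r3 was the only one of the 10 genes whose 2 Sox4cKO libraries both lay above the control libraries there, as did 6.52% of all genes tested. Its neighbour on the opposite strand, Dvl1, shares 36 exon bases with it, and Dvl1 was also highest in Sox4cKO CD44minus replicate 2, at 302 CPM against 59.3 to 134 CPM in the other CD44minus libraries; its part in the Tas1r3 values was not tested.

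Gnat3 (chr5:17962549-18019834, plus strand) encodes gustducin, the G protein alpha subunit of taste cells. It was barely read. Sox4cKO CD44plus had 3 and 5 reads and control CD44plus 0 and 2 reads. Sox4cKO CD44minus had 5 and 0 reads and control CD44minus 2 and 2 reads. The exact Poisson 95% interval of 5 reads, 1.62 to 11.7, begins below the 3 reads that a count of 0 allows, so a difference in Gnat3 was not detectable at this depth.

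Plcb2 (chr2:118707517-118728438, minus strand) encodes the phospholipase of the cascade. It had 65.5 and 131 CPM in Sox4cKO CD44plus, against 35.5 and 53.3 CPM in control CD44plus. The 2 Sox4cKO libraries lay above both control libraries, and replicate 2 was 2.00 times replicate 1. Plcb2 in CD44minus had 17.8 and 6.54 CPM in Sox4cKO and 20.2 and 15.7 CPM in control, again with overlap.

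Trpm5 (chr7:143069153-143094642, minus strand) encodes the calcium-activated cation channel at the end of the cascade. It had 40.2 and 35.4 CPM in Sox4cKO CD44plus, against 33.9 and 32.0 CPM in control CD44plus. The genotypes did not overlap, but all 4 values lay close together, and the log2 fold change was 0.20 (SE 0.54). In CD44minus, Trpm5 had 18.8 and 8.45 CPM in Sox4cKO and 18.9 and 13.8 CPM in control. It shares 220 exon bases with Tssc4 on the opposite strand, which had 10.7 to 17.2 CPM in CD44plus.

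The last 3 genes belong to the signals that tuft cells send or receive. Il25 (chr14:54932695-54935837, plus strand), the tuft cell cytokine, had 6 and 0 reads in Sox4cKO CD44plus, against 12 and 2 reads in control CD44plus. In CD44minus it had 8 and 0 reads in Sox4cKO and 4 and 11 reads in control. Neither comparison separated the genotypes, and both 0 values fell in replicate 2 of Sox4cKO, which is 1 animal.

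Il17rb (chr14:29996135-30008896, minus strand) encodes the receptor subunit that binds IL-25, found on ILC2 and on tuft cells. It had 7.81 and 12.2 CPM in Sox4cKO CD44plus, against 8.4 and 11.7 CPM in control CD44plus. The genotypes overlapped, and the group means differed less than the libraries within either group. Within CD44minus, Il17rb had 5.94 and 3.54 CPM in Sox4cKO and 6.74 and 5.5 CPM in control. It shares 141 exon bases with Actr8 on the opposite strand, so its reads are uncertain in the same way as those of Avil.

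Chat (chr14:32408203-32465989, minus strand) encodes choline acetyltransferase, which makes acetylcholine in tuft cells and in enteric neurons. It had 5.21 and 1.52 CPM in Sox4cKO CD44plus, against 7.95 and 4.93 CPM in control CD44plus. Its levels in CD44minus were 26.2 and 7.63 CPM in Sox4cKO and 28.3 and 22.8 CPM in control. Of the members with more than 12 reads in any library, Chat was the only one that was lower in CD44plus in both genotypes, with no overlap between gates, as were 16.2% of all genes in Sox4cKO and 41% in control.

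Between genotypes in CD44plus, edgeR's quasi-likelihood test called 0 of the 10 genes, and it called 0% of the 20427 genes tested. At an unadjusted p under 0.05 the fit of all 8 libraries had 128 genes and none of the 10, and DESeq2 also called 0 genes, with 135 at an unadjusted p under 0.05. Of the 10 genes, 4 (Avil, Gnat3, Plcb2 and Trpm5) were higher in each Sox4cKO library than in either control library, beside 14.2% of all genes tested. Among these, Gnat3 rested on 3 and 5 reads against 0 and 2, too few to show a difference. Trpm5 differed little, at 40.2 and 35.4 CPM against 33.9 and 32.0 CPM. Dclk1 alone was lower in the same sense, beside 16.4% of all genes. The median log2 fold change was 0.019 over the 10 genes and -0.00052 over all genes. The signs of Tas1r3 (log2 fold change 0.04, SE 0.69) and of Il17rb turned under another scaling, and both values are within their standard errors of 0.

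In CD44minus the genotype test called 0 of the 10 genes and 0% of the genes tested by edgeR, with 116 genes at an unadjusted p under 0.05, and 0 genes by DESeq2, with 117 at an unadjusted p under 0.05. Of the 10 genes, 7 had negative and 3 positive log2 fold changes, with a median of -0.48 beside 0.19 over all genes. Tas1r3 was the 1 gene higher without overlap, beside 6.52% of all genes, and none was lower without overlap, beside 5.94%. These negative values rest on replicate 2. Without Sox4cKO CD44minus replicate 2 the median of the 10 was 0.17, and the log2 fold change was -0.07 for Pou2f3 and 0.20 for Dclk1. Without Sox4cKO CD44minus replicate 1, which leaves replicate 2 as the lone Sox4cKO library of the gate, 37.6% of all genes tested were called in either direction and 10.2% lower, and Pou2f3, Dclk1 and Plcb2 were called lower, 3 of the 9 tuft genes tested.

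**Figure D2:**
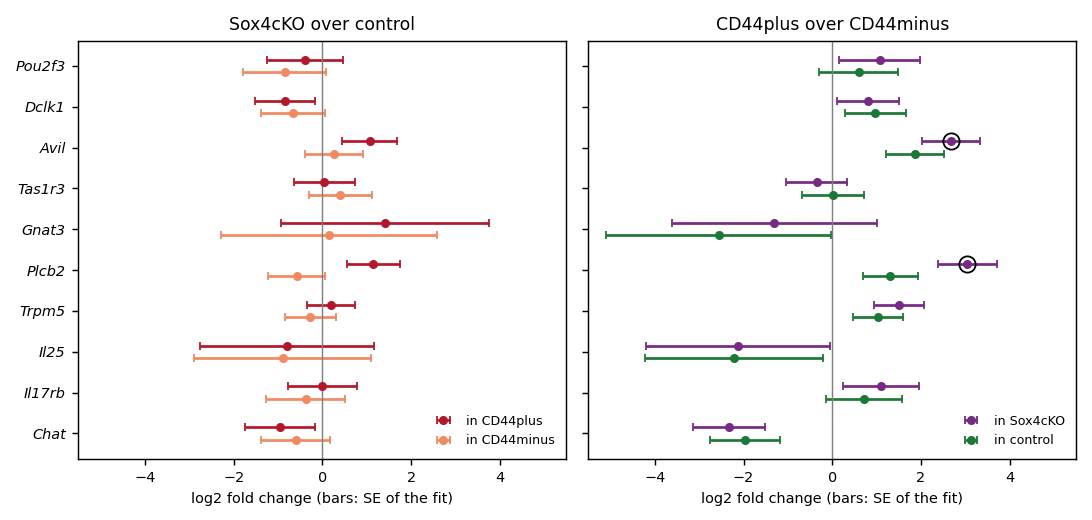
Log2 fold changes of the 10 tuft cell genes by edgeR, Sox4cKO over control in each gate (left) and CD44plus over CD44minus in each genotype (right); points are fitted values, bars 1 standard error, and a ring marks an adjusted p under 0.05. The 2 ringed points are Plcb2 (3.04) and Avil (2.67) in Sox4cKO; Gnat3 and Il25 rest on 0 to 12 reads a library and have the longest bars.

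Between the gates, the 2 libraries compared within a replicate number come from the same animal. In Sox4cKO, edgeR's quasi-likelihood test called Plcb2 and Avil, both higher in CD44plus, so 2 of the 10 genes, beside 2.59% of the 20427 genes tested in either direction and 1.66% higher. Plcb2 had a log2 fold change of 3.04 (SE 0.66) with an adjusted p of 0.0229 by this test, and Avil had 2.67 (SE 0.66) with an adjusted p of 0.0394. With the animal as a block, edgeR called 8.38% of genes and 3 of the 10, giving adjusted p of 0.00237 for Plcb2, 0.0151 for Avil and, for Chat, which fell in CD44plus by 2.32 on the log2 scale (SE 0.70), 0.0213. Trpm5, at a log2 fold change of 1.49 (SE 0.57), had an adjusted p of 0.184 by edgeR without the block. Avil, Plcb2, Trpm5 and Il17rb were higher in CD44plus without overlap, beside 21.1% of all genes, and Chat was lower, beside 16.2%. The median over the 10 genes was 0.93, and over all genes -0.48.

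Whether these genes were called depended on which libraries were fitted. Leaving out each library in turn, the log2 fold change ran from 2.46 to 3.91 for Plcb2 and from 1.83 to 3.22 for Avil. Both calls held without Sox4cKO CD44plus replicate 1. Without Sox4cKO CD44plus replicate 2, the deepest library, edgeR called 11 genes, 0.0534% of those tested, and 0 of the 9 tuft genes tested, with log2 fold changes of 2.46 for Plcb2 (adjusted p = 0.342) and 1.83 for Avil (adjusted p = 0.766). Without Sox4cKO CD44minus replicate 2 it called 8440 genes, 40.9% of those tested, and 3 of the 10 (Plcb2 and Avil higher, Chat lower). Without Sox4cKO CD44minus replicate 1 it called 3379 genes, or 16.7%, and 5 of the 9 tuft genes tested, all higher: Pou2f3, Dclk1, Avil, Plcb2 and Trpm5. Leaving out any 1 of the 4 control libraries left Plcb2 as the only call among the 10. With RLE size factors the adjusted p by edgeR was 0.0316 for Plcb2 and 0.0519 for Avil, with library totals alone it was 0.137 and 0.167, and in the fit of the 4 Sox4cKO libraries 0.111 and 0.139.

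In control animals, edgeR called 0 of the 10 genes between the gates, beside 2.46% of the genes tested, with 2 of the 10 and 4694 genes at an unadjusted p under 0.05. DESeq2 called 2199 genes and 0 of the 10. Tas1r3 was near 0 in this fit, at a log2 fold change of 0.01 (SE 0.71), and turned negative under other scalings. Avil had 1.87 (SE 0.66), Plcb2 1.31 (SE 0.63) and Chat -1.97 (SE 0.79), with adjusted p by edgeR of 0.124, 0.221 and 0.164. With the animal as a block, 17.9% of genes passed, and of the 10 genes Avil rose (adjusted p = 0.0471 by edgeR) and Chat fell (adjusted p = 0.0278). Dclk1, Avil, Plcb2, Trpm5 and Il17rb were higher in CD44plus without overlap, beside 38.7% of all genes, and Gnat3, Il25 and Chat lower, beside 41% of all genes. The median over the 10 genes was 0.66, against -0.19 over all genes. The fit of the 4 control libraries called 54.9% of genes and 4 of the 9 tuft genes it tested, Avil and Plcb2 higher and Il25 and Chat lower. Leaving out either Sox4cKO CD44minus library, which leaves a lone library in that group, raised the calls among the tuft genes and among all genes. The median log2 fold change of the tuft genes tested was then 0.70 without replicate 1 and 0.67 without replicate 2.

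The difference of the genotype effect between the gates was called for 0 of the 10 genes and for 0% of genes by edgeR, with 50 genes at an unadjusted p under 0.05, and for 0 genes by DESeq2, with 44. Plcb2 came closest among the 10, with a difference of 1.73 on the log2 scale (SE 0.89) and an unadjusted p of 0.0665. Without Sox4cKO CD44minus replicate 1, Plcb2 was called, 1 of the 9 tuft genes tested, beside 1.26% of all genes. That Plcb2 passed the gate test in Sox4cKO and not in control therefore does not show that the genotypes differ.

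The excess of Avil and Plcb2 in Sox4cKO CD44plus replicate 2 stood beside signs of other cell types in the same library. Relative to the highest of the other 3 CD44plus libraries, Avil was 2.61 times and Plcb2 2.00 times higher. On the same measure, the summed levels of marker lists were 4.81 times higher for 7 mast cell genes, 2.30 times for 9 ILC2 and T helper 2 genes, 2.2 times for 11 B cell, plasma cell and myeloid genes and 1.69 times for 14 T cell genes. The excess was not limited to leukocyte lists, as 7 stroma and endothelium genes summed to 1.71 times. The epithelial list of 6 genes was at 0.868 of the highest. The tuft genes with no such excess were Pou2f3 at 0.483, Dclk1 at 0.381, Tas1r3 at 0.670, Trpm5 at 0.881 and Chat at 0.191, while Il17rb was at 1.05. Plcb2 is also known from leukocytes. By the median gene in place of the sum, the mast cell, T cell and B cell, plasma cell and myeloid lists were also highest in Sox4cKO CD44plus replicate 2. The median ILC2 and T helper 2 gene was not, at 11.3 CPM there against 11.7 CPM in control CD44plus replicate 2.

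Every gene of these leukocyte lists that is in the tables was read in each CD44plus library, except that 1 of the 9 ILC2 genes was at 0 in Sox4cKO replicate 2. The summed mast cell level was 3644 and 17537 CPM in Sox4cKO CD44plus, against 1890 and 3136 CPM in control CD44plus. The summed T cell level was 2360 and 5767 CPM in Sox4cKO, against 2185 and 3407 CPM in control. The part of these cells in the Avil and Plcb2 values was not tested. Without Sox4cKO CD44plus replicate 2, the log2 fold change between genotypes was 0.22 for Avil and 0.56 for Plcb2. Without these 2 genes, the other 8 summed to 103 and 82.3 CPM in Sox4cKO CD44plus, against 101 and 119 CPM in control CD44plus.

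**Figure D3:**
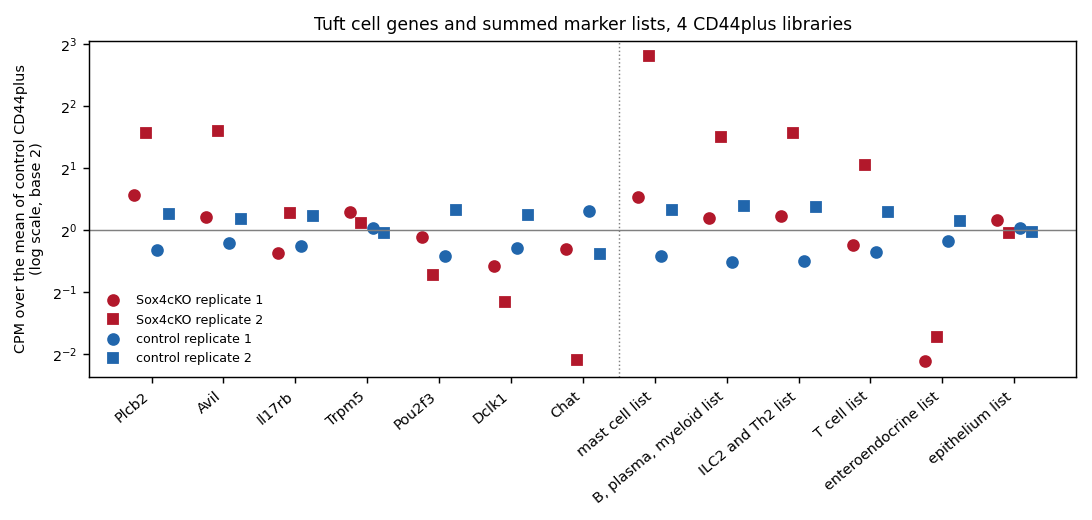
CPM in each of the 4 CD44plus libraries divided by the mean of the control CD44plus libraries (log scale of base 2), for 7 tuft cell genes (left of the dotted line) and for the summed level of 6 marker lists (right); red marks Sox4cKO, blue control, circles replicate 1 and squares replicate 2. The red squares of Plcb2 and Avil lie high like those of the mast cell, B cell and myeloid, ILC2 and T cell lists, while those of Pou2f3, Dclk1 and Chat lie below every other library.

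How far the low values stand above stray reads was read from genes that gut epithelium is not known to use. Olfactory and vomeronasal receptors belong to sensory neurons of the nose, and 1449 such genes are in the tables. They took 359 and 69.3 CPM of gene counts in Sox4cKO CD44plus, against 291 and 271 CPM in control CD44plus, but 4124 and 185 CPM in Sox4cKO CD44minus, against 3632 and 1361 CPM in control CD44minus. Their reads per kilobase of coding exon, taken over the 1430 with a coding length, were multiplied by the exon length of each tuft gene to give the reads that this background alone would place on it. The prediction is rough: with full exon lengths of the receptor genes it would be 3.45 times lower. The exon length of a tuft gene merges the exons of all its annotated transcripts. The prediction would be lower over only some of these transcripts.

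In CD44plus 8 of the 10 genes were read at 4.36 times the prediction at the least in every library, while Gnat3 ran from 0 to 6.39 times and Il25 from 0 to 4.96 times. The median over the 10 genes was 11.3 and 45 times the predicted reads in Sox4cKO and 12.5 and 16.4 times in control. In CD44minus it was 1.84 and 4.33 times in Sox4cKO and 2.04 and 2.85 times in control. Dclk1, the longest of the 10 with 15296 exon bases, had 43 and 11 reads in Sox4cKO CD44minus where 47.3 and 12.6 were predicted, and 33 and 39 reads in control CD44minus where 31.4 and 31.0 were predicted. These are 0.910 and 0.871 times the prediction in Sox4cKO and 1.05 and 1.26 times in control. With full exon lengths of the receptor genes, a choice made after seeing the data, the Dclk1 ratios in CD44minus would be 3.14 and 3.01 in Sox4cKO and 3.63 and 4.35 in control, so whether Dclk1 exceeds the background there turns on that length. Avil stayed above the prediction in every CD44minus library, at 4.57 and 16 times in Sox4cKO and 3.88 and 4.36 times in control.

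As a ratio to the prediction, the Chat values of the gates overlapped. Its reads were 4.36 and 5.91 times the prediction in Sox4cKO CD44plus, against 3.65 and 7.21 times in Sox4cKO CD44minus. In control they were 8.33 and 5.55 times in CD44plus, against 4.36 and 6.09 times in CD44minus. The gates overlapped in both genotypes on this scale, although they did not in CPM. The ratio divides by a background that was higher in CD44minus within each animal, so it does not show how much of the CPM difference is background. Chat had 53 and 28 reads in Sox4cKO CD44minus where 14.5 and 3.88 were predicted. In control CD44minus it had 42 and 58 reads where 9.64 and 9.52 were predicted. Slc18a3, the vesicular acetylcholine transporter gene that lies within the Chat locus without sharing exon bases, was likewise lower in CD44plus in CPM. It had 1.01 and 0.0947 CPM in Sox4cKO CD44plus, against 5.94 and 3.27 CPM in Sox4cKO CD44minus. In control it had 0.983 and 0.365 CPM in CD44plus, against 8.08 and 6.68 CPM in CD44minus. These values rest on few reads. Sox4cKO CD44plus had 7 and 1 reads where 4.24 and 1.39 were predicted, and Sox4cKO CD44minus 12 and 12 where 7.46 and 1.99 were predicted. Control CD44plus had 11 and 2 reads where 5.48 and 2.49 were predicted, and control CD44minus 12 and 17 where 4.95 and 4.89 were predicted. A list of 9 enteric neuron and glia genes summed to 36.0 and 22.7 CPM in Sox4cKO CD44plus, against 124 and 29.2 CPM in Sox4cKO CD44minus, and to 31.3 and 37.6 CPM in control CD44plus, against 109 and 73.1 CPM in control CD44minus. Within CD44minus this sum ranked the libraries as the receptor genes did. Those took 4124 and 185 CPM of gene counts in Sox4cKO CD44minus, against 3632 and 1361 CPM in control CD44minus. Sox4cKO CD44minus replicate 2, the lowest on both, lay within the range of the CD44plus libraries for the list. The sum was not scaled to this background. The part of enteric neurons and glia in the Chat values was not tested.

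**Figure D4:**
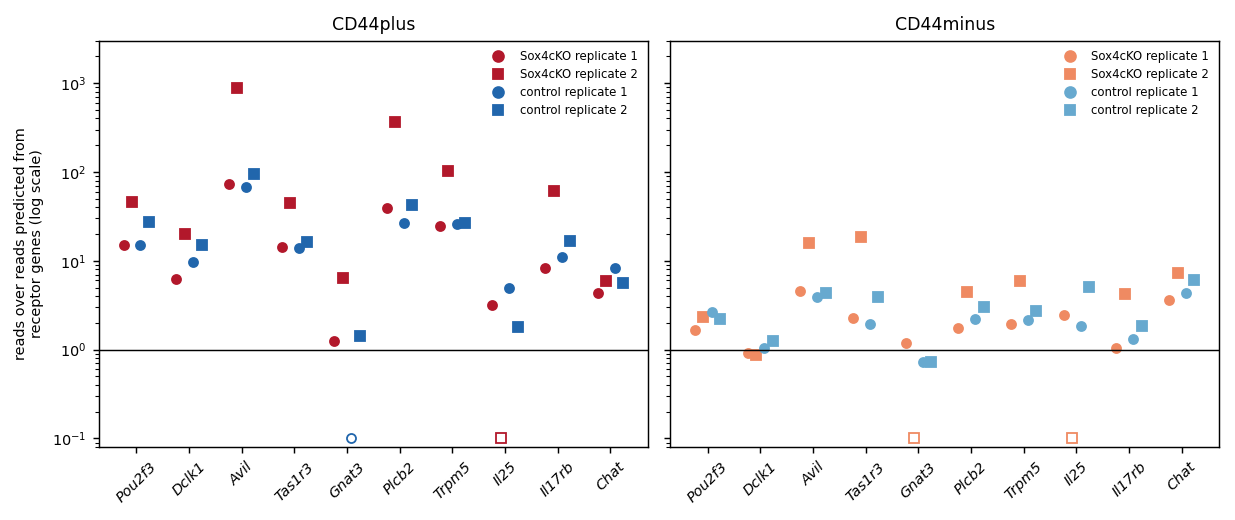
Reads of each tuft cell gene divided by the reads predicted from olfactory and vomeronasal receptor genes of the same library (log axis), with 1 point per library; open symbols at 0.1 stand for 0 reads, and a value of 1 means no more reads than the background predicts. In CD44minus Dclk1 sits between 0.871 and 1.26, while in CD44plus Avil reaches 68.5 to 890.

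Per kilobase of exon, the order of the levels in CD44plus could be read across genes. Averaged over the 4 CD44plus libraries, Avil was highest at 24.8 CPM per kilobase, ahead of Plcb2 at 10.8 and Trpm5 at 5.53. Pou2f3 (3.62), Tas1r3 (2.98), Il17rb (2.71) and Dclk1 (1.87) followed, and Chat (1.04), Il25 (0.542) and Gnat3 (0.234) were lowest. The ranges of each neighbouring pair in this order overlapped over the 4 libraries. Within every one of these libraries, however, Avil stood above Plcb2 and Plcb2 above Trpm5. The latter pair was close in control replicate 1, at 5.38 and 5.29 CPM per kilobase. Some neighbours lower in the order changed places between libraries. Pou2f3 stood above Trpm5 in control replicate 2, and Il17rb above Tas1r3 in replicate 2 of both genotypes. Gnat3 stood above Il25 in Sox4cKO replicate 2, on few reads. Over this length Dclk1, the usual marker, averaged less than the taste cascade members Plcb2, Trpm5 and Tas1r3. The length merges the exons of all annotated transcripts of a gene, 15296 bases for Dclk1, and which transcripts were read was not tested. A gene read from only some of its transcripts would stand higher per unit of their length, so the place of Dclk1 may depend on this choice.

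Other genes of tuft cells did not separate the genotypes by the test either. For further tuft genes, 6 lists held 67 symbols, of which 64 are in the tables and 60 were tested. Between the genotypes in CD44plus, edgeR called 0 of these, with 35 positive and 25 negative log2 fold changes and a median of 0.087. In CD44minus it called 0, with 29 positive and 31 negative values and a median of -0.047. Sh2d6, Irag2 and Siglecf were not found by these symbols. Lrmp and Siglec5, older symbols of Irag2 and Siglecf, are also listed and are among the 64. Shared parts of calcium signalling were high in both genotypes. Itpr3, the inositol trisphosphate receptor gene, had 625 and 671 CPM in Sox4cKO CD44plus, against 657 and 658 CPM in control CD44plus. Gnb1, a G protein beta subunit gene, had 396 and 414 CPM in Sox4cKO CD44plus, against 370 and 360 CPM in control CD44plus, a log2 fold change of 0.15 (SE 0.94). Of the transcription factors, Sox9, which is also active in crypt stem cells, had 330 and 338 CPM in Sox4cKO CD44plus, against 419 and 413 CPM in control CD44plus. Gfi1b, a zinc finger factor of tuft cells, was low, at 2.46 and 1.33 CPM in Sox4cKO CD44plus and 0.983 and 2.19 CPM in control CD44plus. Gng13, the G protein gamma subunit gene of taste cells, did not pass the filter, with 0.663 to 1.64 CPM in CD44plus.

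Of the leukotriene genes, which tuft cells share with mast cells and other leukocytes, Alox5ap and Alox5 were also highest in Sox4cKO CD44plus replicate 2 where mast cell markers were highest. Alox5ap, the 5-lipoxygenase activating protein gene, had 28.8 and 120 CPM in Sox4cKO CD44plus, against 16.6 and 31.4 CPM in control CD44plus. Alox5 had 24 and 107 CPM in Sox4cKO CD44plus, against 13.0 and 25.2 CPM in control CD44plus. Both overlapped between the genotypes, and 5 of the 6 genes of the list had positive log2 fold changes, with a median of 1.01. Summed, the list was 2.39 times higher in that library than in any other of CD44plus.

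Between gates, edgeR called 5 of the 60 further tuft genes in Sox4cKO, beside 2.59% of all genes, and 4 in control, beside 2.46%. Without Sox4cKO CD44plus replicate 2 this comparison called 11 genes in all in Sox4cKO. In Sox4cKO, Pla2g4a, the phospholipase that frees arachidonic acid, rose by 2.90 on the log2 scale (SE 0.59, adjusted p = 0.0182), Alox5ap by 5.14 (SE 0.81, adjusted p = 0.0117), the leukocyte phosphatase gene Ptprc by 3.75 and Fyb, an adaptor gene of T cells and myeloid cells, by 3.51. Espn, the gene of the actin bundler espin, fell by 3.08. In control, Pla2g4a rose by 2.74, Alox5ap by 3.05, Ptprc by 4.02 and Kctd12 by 2.59. Pla2g4a had 42.2 and 54.4 CPM in Sox4cKO CD44plus, against 8.91 and 4.36 CPM in Sox4cKO CD44minus, and 47.5 and 53.5 CPM in control CD44plus, against 8.08 and 7.08 CPM in control CD44minus. It was thus even across the CD44plus libraries, without the excess of Alox5ap in replicate 2 of Sox4cKO. Receptors of interleukins 4 and 13 were read in all groups, with Il4ra at 85.6 and 148 CPM in Sox4cKO CD44plus, against 40.7 and 61.9 CPM in control CD44plus.

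Across the 8 libraries, the genes whose log2 CPM was most like the mean log2 CPM of the 10 were Mlh3 and Ift80 (Pearson r of 0.988 each), Tsga14 (0.983), Fam110b (0.981) and Adssl1 (0.978). None of them is a listed tuft gene. All 5, like the mean of the 10, were lowest in Sox4cKO CD44minus replicate 2. Mlh3, for example, had 2.72 CPM there, against 16.1 to 35.7 CPM in the other 7 libraries. The mean does not stand for each of the 10 genes. Tas1r3 correlated with it at -0.554 and Chat at 0.0799, against 0.469 to 0.936 for the others, each itself part of the mean. In Sox4cKO CD44minus replicate 2, Tas1r3 was at its highest, 14.7 CPM, and Gnat3 and Il25 had 0 reads. The points share library depth and background, and the likeness describes these libraries only.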

How the data were processed

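Tables of raw counts per gene symbol were used as the authors deposited them, 1 per library. Tools named in the submitters' processing notes are HTSeq 0.6.1p1, STAR 2.2.5b, Trimmomatic 0.36 and bcl2fastq 2.17.4, with the build mm10. Per the labels' protocols, a kit that marks strand in small amounts of total RNA was used; whether HTSeq counted by strand is not given in the sources used here. Of uniquely placed reads, 64.6 to 96.6% were counted to no gene and left out; whether a strand setting bears on this share was not tested. The 10 genes and all lists were chosen with earlier results of these data known.

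The 4 groups were fitted in all 8 libraries with edgeR 4.0.16 (R 4.3.3, limma 3.58.1), after filterByExpr with a minimum count of 10 and TMM scaling, by the quasi-likelihood test with Benjamini-Hochberg adjustment over 20427 genes and a threshold of 0.05. Alternatives were DESeq2 1.42.0, RLE size factors, library totals, no filter, fits of 4 libraries, a replicate block and leaving out each library. P-values of the main fit rest on the spread between 2 littermates per group, estimated jointly over the 4 groups. The spread of the CD44minus libraries thus enters the tests within CD44plus, and the reverse. Without the block, the libraries of an animal's gates were fitted as if independent. A count of 0 allows 3 counts, or 0.227 to 3.39 CPM of gene counts. Such floors and the Poisson intervals hold for counting error alone.

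Table names carry an animal number shared by both gates, so same-numbered libraries of a genotype come from 1 animal; their deviations from group means correlated at 0.526 in Sox4cKO and 0.103 in control. Across genotypes a number marks no shared animal. Gene positions and exon lengths came from GENCODE (GRCm38), where an exon length merges the exons of all annotated transcripts of a gene. Named were the 10 genes, Sox4 and Cd44, the called genes and the 3 highest of each further tuft list, from which examples are printed, and the 5 genes of most like pattern. Tsfm, Dvl1, Tssc4, Actr8, Slc18a3, Gfi1b and Gng13 were named after their values were seen.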

Additional observations from a re-analysis of the deposited data

How the results depend on the processing

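Of the single-gene values, 248 kept direction and side of the threshold when a setting other than the libraries was changed, 15 turned direction, 11 passed the threshold and 5 lost it. The values that turned, and the counts that moved by more than 1.5 times, follow. For Sox4cKO against control in CD44plus, 17 genes were called in the fit of 4 libraries, none of the 10 tuft genes among them; with a replicate block across genotypes, where a number marks no shared animal, 565 genes and 3 tuft genes were called, Avil and Plcb2 higher and Dclk1 lower. The deviations of same-numbered libraries correlated across genotypes at 0.275 in CD44plus and 0.60 in CD44minus, as a hint from the data and not from the design. Il17rb turned to -0.013 with RLE, -0.13 with library totals, -0.011 with DESeq2 and -0.018 with the replicate block, and Tas1r3 to -0.050 with library totals. In CD44minus, Avil turned to -0.10 with the replicate block. Between gates in Sox4cKO, RLE called 1 tuft gene (Plcb2), library totals 0 among 2039 genes, and the fit of 4 libraries 0 tuft genes and 0 genes; genes called were 884 without a filter, 1765 with DESeq2 and 1712 with the animal block, and Dclk1 turned to -0.038 with library totals. Between gates in control, genes called were 2091 with library totals, 994 without a filter, 2199 with DESeq2, 9877 in the fit of 4 libraries, with 4 tuft genes, and 3659 with the animal block, with 2 tuft genes. With library totals the tuft median there was -0.0012 and Pou2f3 -0.10, and Tas1r3 turned to -0.31 with RLE, -0.55 with library totals, -0.32 with DESeq2 and -0.20 in the fit of 4 libraries. The difference between gates turned to 0.27 for Dclk1 with the replicate block and, for Il25, to -0.26 with library totals and -0.00048 with DESeq2. The cause of these changes was not tested, except that the fits of 4 libraries hold fewer samples.

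Scaling moved the median of all genes between gates from -0.48 to -0.72 in Sox4cKO with RLE, and from -0.19 to -0.52 with RLE and to -0.77 with library totals in control. In Sox4cKO, 339 genes were called higher and 190 lower with TMM, 329 and 312 with RLE, and 720 and 1045 with DESeq2; in control these were 411 and 91, 384 and 176, and 1138 and 1061, with 1416 and 675 for library totals.

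Leaving out each library in turn, which assumes that a lone library of a group varies like the others, gave these ranges. For genotype in CD44plus, 0 to 24 genes were called, the tuft median ran from -0.20 to 0.22, Pou2f3 from -0.81 to 0.033, Tas1r3 from -0.39 to 0.30, Trpm5 from -0.0064 to 0.29, Il25 from -5.09 to 0.22 and Il17rb from -0.36 to 0.26. For genotype in CD44minus, 0 to 7613 genes and 0 to 3 tuft genes were called, the tuft median ran from -1.46 to 0.17, Dclk1 from -2.64 to 0.20, Avil from -0.27 to 0.69, Gnat3 from -0.21 to 1.23, Trpm5 from -0.94 to 0.22, Il25 from -7.43 to 0.15 and Chat from -1.75 to 0.039. Between gates in Sox4cKO, 11 to 8440 genes and 0 to 5 tuft genes were called, the tuft median ran from 0.12 to 2.55, Dclk1 from -0.053 to 2.76 and Il25 from -6.43 to 4.35. In control, 0 to 7362 genes and 0 to 5 tuft genes were called, the tuft median ran from 0.32 to 1.02 and Tas1r3 from -0.096 to 0.12. For the difference between gates, 0 to 254 genes and 0 to 1 tuft genes were called, the tuft median ran from -0.12 to 1.35, Pou2f3 from -0.32 to 1.96, Dclk1 from -1.03 to 1.80, Avil from -0.040 to 1.40, Trpm5 from -0.023 to 1.14, Il25 from -4.17 to 6.59 and Chat from -1.49 to 0.77.

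With full exon lengths of the receptor genes, added after seeing the data, the median Dclk1 ratio over the predicted background in CD44minus was 3.39, against 0.981 with coding lengths. The limits lie in depth and number. Gnat3 and Il25, with 0 to 12 reads a library, allow no statement on direction, and each group has 2 libraries.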
